A study of Mus musculus with 4 samples.

Results

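Natural killer (NK) cells of healing mouse skin were examined in single-cell RNA-sequencing libraries of CD45+ wound cells. Among cells with at least 200 genes and at most 10% mitochondrial UMIs, an NK cell was taken as one with at least 2 unique molecular identifiers (UMIs, which count captured RNA molecules) of Nkg7, at least 1 UMI of Ncr1 or Klrb1c, and no UMI of Cd3e, Cd3g, Hdc or Csf1r. Nkg7 encodes a granule protein of cytotoxic lymphocytes, Ncr1 the activating receptor NKp46, and Klrb1c the receptor NK1.1. The 4 absent genes mark T cells (Cd3e, Cd3g), mast cells, basophils and neutrophils (Hdc), and monocytes and macrophages (Csf1r). This rule kept 143 of 19827 cells. The levels of these 7 genes chose the cells and are not results.

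Wounds were made with a 3 mm biopsy punch in 8-week-old male mice, and live CD45+ cells were sorted from digested wound tissue at 1 or 5 days post-wounding (dpw). There was 1 library for each of 4 conditions: Angptl4+/+ at 1 dpw, Angptl4+/+ at 5 dpw, Angptl4-/- at 1 dpw and Angptl4-/- at 5 dpw. All mice are labelled C57BL6/J. Angptl4 encodes a secreted inhibitor of lipoprotein lipase. The Angptl4+/+ and the Angptl4-/- mice came from different suppliers, so genotype and mouse source cannot be told apart. How many mice gave each library is not given in the sources used here. With 1 library per condition no condition was replicated, differences between conditions were not tested, and every interval below is a 95% interval that covers counting error only (Newcombe's for differences between shares, exact otherwise). Angptl4 itself had 47 UMIs in the Angptl4+/+ library at 1 dpw, 78 at 5 dpw and 0 in both Angptl4-/- libraries.

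NK cells are innate lymphocytes that kill stressed, infected or transformed cells by releasing perforin and granzymes, and that secrete interferon-γ and chemokines. They carry no rearranged antigen receptor, and whether they fire depends on the balance of activating and inhibitory receptors, many of which are encoded side by side in the NK gene complex. In skin they are scarce among the myeloid cells that fill an early wound, and they can enter from the blood.

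The rule was narrow at every step. Of 302 cells with at least 2 Nkg7 UMIs, 196 had Ncr1 or Klrb1c, 173 of these had neither Cd3e nor Cd3g, and 143 also lacked Hdc and Csf1r. Hdc removed 21 cells and Csf1r 10, where a cell with both is counted under each. The step on Hdc weighed most at 1 dpw in Angptl4+/+ wounds, where it took 5 of 10 cells. At the lower edge, 5 NK cells had exactly 2 Nkg7 UMIs and 2 cells were left out for having 1. The summed level of Gzma, given in UMIs per 1000000 UMIs of the cells summed (CPM), was 2379 CPM in those 5 cells and 528 CPM in those 2. On the receptor side, 7 NK cells had 1 UMI of Ncr1 and Klrb1c together, with 5154 CPM of Gzma, and 1 cell was left out for having none, with 0 CPM. The NK cells of the Angptl4+/+ library at 1 dpw had a median of 4768 UMIs per cell, those at 5 dpw 6632, and those of Angptl4-/- wounds 4071 and 7230.5. They were deeper than the median cell of their library at 5 dpw (3873 and 3735.5 UMIs) and shallower at 1 dpw (4975.5 and 4814.5). No cell barcode was shared between NK cells of different libraries, and 2 NK cells, both of the Angptl4+/+ library at 5 dpw, were among the 1140 cells with the highest doublet scores.

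NK cells were rare at 1 dpw and made up over 1% of sorted cells at 5 dpw in both genotypes. In Angptl4+/+ wounds 5 of 5346 cells at 1 dpw were NK cells (0.0935%, interval 0.0304 to 0.218%), and 69 of 4945 at 5 dpw (1.40%, 1.09 to 1.76%). In Angptl4-/- wounds the counts were 9 of 4798 at 1 dpw (0.188%, 0.0858 to 0.356%) and 60 of 4738 at 5 dpw (1.27%, 0.968 to 1.63%). The gain from 1 to 5 dpw, beyond counting error in both genotypes, was 1.30 points of a percent (0.985 to 1.67) for Angptl4+/+ and 1.08 (0.751 to 1.45) for Angptl4-/- libraries. Between genotypes the difference, Angptl4-/- minus Angptl4+/+, was 0.0941 points (-0.0595 to 0.271) at 1 dpw and -0.129 (-0.591 to 0.334) at 5 dpw, so none was detectable at this depth. A share of sorted cells also moves with the number of other cells, and NK cells per wound were not measured. A gate for T cells (at least 2 UMIs of Cd3e plus Cd3g, none of Ncr1, Hdc or Csf1r) held 0.337% (Angptl4+/+) and 0.271% (Angptl4-/-) of the early cells and 2.31 and 2.22% of the later ones, so both lymphocyte gates were larger at 5 dpw. NK cells were 37.7% of the NK and T cells together at 5 dpw in Angptl4+/+ wounds and 36.4% in Angptl4-/- wounds. At 1 dpw they were 21.7% (5 of 23 cells, 7.46 to 43.7%) and 40.9% (9 of 22 cells, 20.7 to 63.6%), and these intervals overlap those at 5 dpw.

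**Figure D1:**
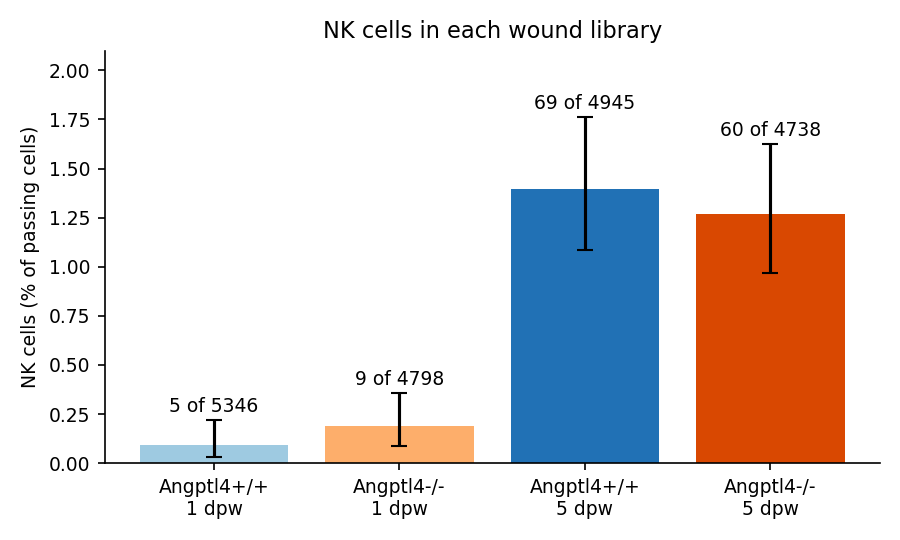
Share of NK cells among cells passing the filters (y axis, percent) in each of the 4 libraries (x axis); bars show the share and lines the exact 95% interval. Both 5 dpw libraries lie above 1%, and both 1 dpw libraries below 0.2%.

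Summed over cells, genes that the rule did not use carried the NK label, but not every cell had them. Below, 4 values in a row are always in the order Angptl4+/+ at 1 dpw, Angptl4+/+ at 5 dpw, Angptl4-/- at 1 dpw and Angptl4-/- at 5 dpw. Gzma, a granule serine protease, was summed to 8903, 6248, 13476 and 5309 CPM in NK cells. In the T gate the same libraries held 377, 205, 24.5 and 287 CPM, so no NK value overlapped a T value. Eomes, a T-box factor required for NK maturation, stood at 599, 305, 689 and 294 CPM in NK cells against at most 25.2 CPM in the T gate. At 5 dpw, Eomes was seen in 50 of 69 Angptl4+/+ NK cells (72.5%; 24.6% with every cell thinned to 1000 UMIs) and in 51 of 60 Angptl4-/- NK cells (85.0%; 30.0% thinned). Among cells of a Csf1r gate (at least 2 Csf1r UMIs, no Cd3e or Cd3g), which should lack it, 0.134 and 0.122% had a UMI at median depths of 9347 and 11339 UMIs, against 6632 and 7230.5 UMIs in the NK cells. Gzma, Prf1 and Eomes all had no UMI in an Angptl4+/+ NK cell of 6086 UMIs at 1 dpw. The same held at 5 dpw for Angptl4+/+ cells of 4074 and 4088 UMIs and an Angptl4-/- cell of 16126 UMIs. Whether such cells are NK cells or other innate lymphocytes was not tested.

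Some T cell markers were present in NK cells, and most markers of other cell types were low. The 13 T cell markers summed to 1717, 1246, 1236 and 1393 CPM, against 4848 to 6013 CPM in the T gate, with 4, 6, 4 and 5 of them detected. Trbc1 was the most abundant, and over all NK cells it had 703 UMIs, Trbc2 412 and Thy1 306. Cd3d, which the rule did not use, had 1 UMI over all 143 cells. The 4 B cell markers and the 4 markers of group 3 innate lymphoid cells on the lists had none. Of the 6 neutrophil markers 3, 3, 4 and 5 had a UMI, led by S100a9 in the Angptl4+/+ and by S100a8 in the Angptl4-/- libraries. S100a8 was at 160, 86.4, 333 and 199 CPM and S100a9 at 240, 107, 214 and 128 CPM. In a Csf3r gate for neutrophils (at least 2 Csf3r UMIs, no Csf1r, Cd3e or Cd3g) the summed neutrophil markers were at 101809 CPM or more, against 200 to 618 CPM in NK cells. The T gate held 141 to 587 CPM of the same markers. The 8 macrophage markers summed to 120, 42.3, 23.8 and 26.7 CPM, with Lyz2 the most abundant at 5 dpw and Adgre1 at 0 in every library. The part of such RNA in the results below was not tested. Mast cell and basophil markers came to 2 UMIs of Cpa3 in the Angptl4+/+ and 1 UMI in the Angptl4-/- library at 5 dpw, and to 0 at 1 dpw. Cxcr6 (0, 11, 0 and 26.7 CPM) and Il7r (240, 44.1, 0 and 21.4 CPM), both typical of group 1 innate lymphoid cells that live in tissue, were below the T gate in every library. On the same list, summed over the libraries, Tnfsf10 (18.8 against 36.2 CPM) and Cd200r1 (5.97 against 35.8 CPM) were below it too. Itga1 was above it, at 27.3 against 16.3 CPM (1.67-fold, 1.02 to 2.72). A level below the T gate does not show that such cells are absent.

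**Figure D2:**
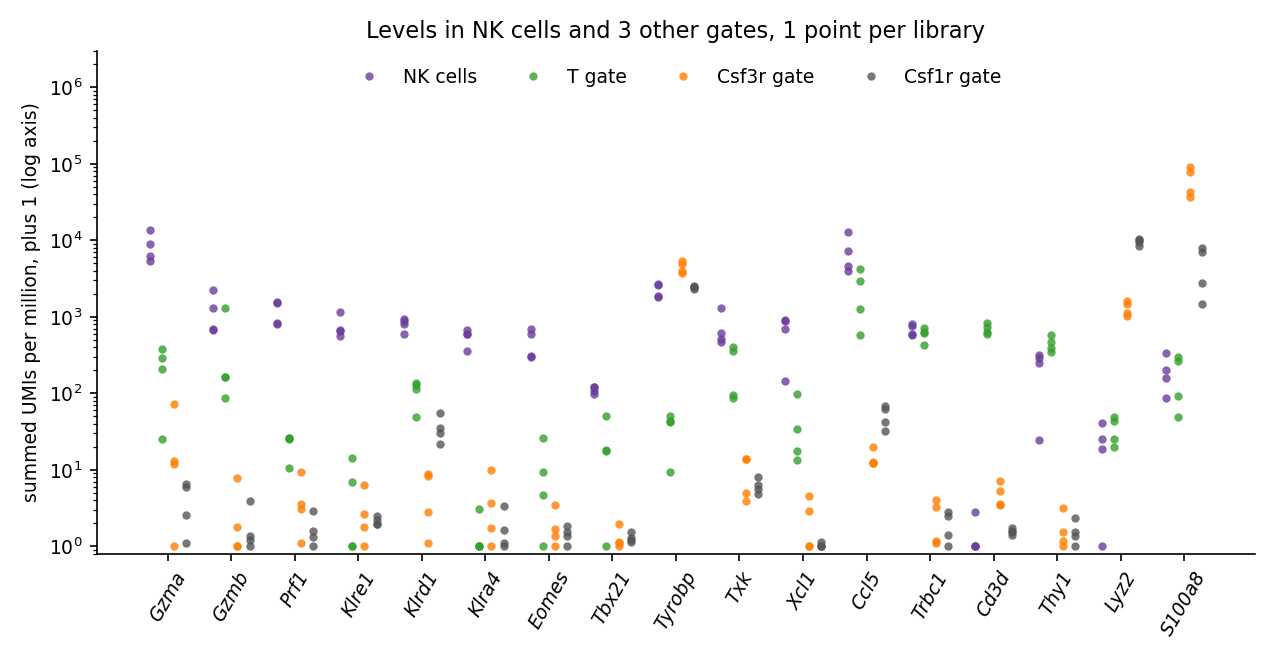
Summed level of 17 genes (y axis, CPM plus 1, log axis) in NK cells, the T gate, the Csf3r gate and the Csf1r gate (colours), 1 point per library. Gzma, Prf1, Klre1, Klra4 and Eomes are higher in NK cells than in every other gate in each library, Trbc1 overlaps between NK cells and the T gate, and Tyrobp is shared with both myeloid gates.

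To find what set NK cells apart from the other lymphocytes of the same wound, the summed counts of NK cells and of the T gate (250 cells) were compared across the 4 libraries with edgeR's quasi-likelihood test, each library being its own block, and p-values were adjusted by Benjamini-Hochberg over 4558 genes. The libraries differ in condition, so the test asks for a difference seen across days and genotypes. Of these genes 252 (5.53%) were higher and 260 (5.7%) lower in NK cells at an adjusted p under 0.05, and the median log2 fold change over all of them was -0.09. The counts depend on the libraries and the test. Without the Angptl4+/+ library of 5 dpw they were 99 and 90 of 1654 genes, and without the Angptl4-/- one 96 and 70 of 1637. DESeq2 gave 173 and 146. Genes of the rule were left out. The 2 gates were drawn on receptor genes of these lineages, and the NK rule also on the granule gene Nkg7. Genes that follow the lineage therefore had to differ, and the lists below describe which did and by how much. In every list the counts are at the same threshold.

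The genes of the killing machinery on the list of cytotoxic granule genes took 1.11% of all UMIs of NK cells. Of 14 cytotoxic granule genes tested, 8 were higher in NK cells and none lower, with a median log2 fold change of 1.68. The NK rule asked for Nkg7, itself a granule gene, and the T gate did not. The count and median thus partly follow the choice of cells and are a description only. Perforin (Prf1), which opens the target cell's membrane, was at 1557, 816, 1497 and 800 CPM in NK cells and at 25.2, 9.68, 24.5 and 24.8 CPM in the T gate (log2 fold change 5.62 ± 0.28 SE, edgeR adjusted p = 4.06e-08). Every NK value was above every T value. Gzma differed by 4.93 ± 0.44, and Gzmb, the granzyme that triggers caspases, by 1.87 ± 0.44 (edgeR adjusted p = 4.15e-06 and 0.0123). Gzmb was at 1317, 699, 2210 and 666 CPM in NK cells and at 1317, 165, 85.7 and 162 CPM in the T gate. The groups overlap only through the 18 T gate cells of the Angptl4+/+ library at 1 dpw. Serpinb9 (3.52 ± 0.29) and Serpinb6b (3.03 ± 0.27), serpins of which the first inhibits granzyme B, were higher too. Ctsw, Ctsd and Fasl completed the group, while the granule core protein gene Srgn (1238, 748, 879 and 956 CPM in NK cells) and the secretion genes Rab27a and Unc13d did not pass. Counted by cells, 45 of 69 NK cells of Angptl4+/+ wounds had Gzmb at 5 dpw (65.2%; 46.4% thinned) and 47 of 60 Angptl4-/- cells (78.3%; 41.7% thinned), against 28.1 and 21.9% of T gate cells and 0.201 and 0.244% of Csf1r gate cells.

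Some promoters of these genes hold the letters known as a core of RUNX factor binding sites, TGTGGTT, which reads AACCACA on the other strand. The 250 bases before the RefSeq start (build GRCm38.p6) are printed 5′ to 3′ in the direction of transcription for the receptor gene that chose the cells, Gzma, Gzmb, and the receptor gene Klra1 described below, with the RUNX core in capitals.
Ncr1: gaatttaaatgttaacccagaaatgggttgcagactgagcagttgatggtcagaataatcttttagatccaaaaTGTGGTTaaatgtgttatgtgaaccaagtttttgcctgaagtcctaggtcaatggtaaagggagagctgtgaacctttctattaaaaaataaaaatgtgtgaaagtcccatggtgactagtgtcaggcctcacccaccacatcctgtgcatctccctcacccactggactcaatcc
Gzma: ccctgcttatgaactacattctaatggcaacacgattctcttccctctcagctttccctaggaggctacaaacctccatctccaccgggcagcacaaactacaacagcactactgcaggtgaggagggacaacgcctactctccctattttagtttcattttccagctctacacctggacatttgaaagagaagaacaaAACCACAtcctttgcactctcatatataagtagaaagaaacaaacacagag
Gzmb: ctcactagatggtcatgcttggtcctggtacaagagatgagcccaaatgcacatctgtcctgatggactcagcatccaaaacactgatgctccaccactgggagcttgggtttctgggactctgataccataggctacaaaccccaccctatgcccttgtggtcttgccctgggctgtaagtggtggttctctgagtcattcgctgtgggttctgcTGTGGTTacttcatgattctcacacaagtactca
Klra1: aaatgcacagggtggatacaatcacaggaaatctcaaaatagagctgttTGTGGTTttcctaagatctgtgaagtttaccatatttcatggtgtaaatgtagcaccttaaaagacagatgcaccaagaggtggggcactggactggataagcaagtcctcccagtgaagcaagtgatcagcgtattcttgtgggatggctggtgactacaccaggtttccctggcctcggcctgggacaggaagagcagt
These windows lie at chr7:4337465-4337714 (plus strand), chr13:113100982-113101231 (minus strand), chr14:56262335-56262584 (minus strand) and chr6:130386875-130387124 (minus strand). The core begins 176 bases before the start in Ncr1, 51 in Gzma, 34 in Gzmb and 201 in Klra1. It was also found in Gzmc, Klre1 and Xcl1 and was absent from the windows of Prf1, Nkg7, Klra4, Klra7, Klra8, Klra9 and Klrb1b. Searched on both strands, it was held by 13 of 188 genes higher in NK cells with a promoter in the table (6.91%), 6 of 201 lower genes (2.99%), 3.5% of 3631 tested genes and 4.4% of all 27025 promoters. For a T-box core (TCACACC) the shares were 3.72% of higher, 2.99% of lower, 2.95% of tested genes and 3.30% of all promoters. For an ETS core (GGAAGT) they were 24.5, 26.4, 26.4 and 19.98%, and for a STAT core (TTCNNNGAA) 10.1, 6.47, 5.92 and 7.11%. No other searched core overlapped the RUNX letters in the 4 windows printed. A match is a stretch of letters and not a measured binding site.

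Killer cell lectin-like (Klr) receptor genes were mostly more abundant in NK cells than in the T gate. Of 15 tested, 14 were higher in NK cells and none lower, with a median log2 fold change of 4.86. Some of them, such as Klra4 and Klri2 with 2 and 1 UMIs over the T gate, could only come out higher. The count and median are therefore no result about the list. Klra4, which encodes the activating receptor Ly49D, was at 359, 594, 665 and 593 CPM in NK cells and at 0, 0, 0 and 2.07 CPM in the T gate (9.06 ± 0.43 SE, edgeR adjusted p = 4.06e-08). It entered the test through the NK cells, so its fitted change and p-value are a description only. Klre1, which pairs with Klri receptors, was at 559, 673, 1165 and 652 CPM against at most 13.4 CPM (6.29 ± 0.34), and Klri2 differed by 7.27 ± 0.47. Klrd1 (CD94), Klrc1 and Klrc2 (its inhibitory and activating partners of the NKG2 family) and Klrk1 (the activating receptor NKG2D) were also carried by T cells and differed less, by 3.11, 2.71, 3.11 and 2.53. Klrk1 was at 1118, 932, 1093 and 914 CPM in NK cells. Klrg1, a receptor of late maturation, was the exception: it was at 0, 69.9, 71.3 and 57.0 CPM in NK cells and 36.7 to 105 CPM in the T gate (-0.67 ± 0.31, edgeR adjusted p = 0.218).

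Some adaptor and kinase genes of receptor signalling differed between NK cells and the T gate. Tyrobp (DAP12), the adaptor of Ly49D and other activating receptors, was at 2595, 1838, 2686 and 1890 CPM in NK cells and 8.39 to 49.0 CPM in the T gate (5.64 ± 0.28 SE, edgeR adjusted p = 4.06e-08). Fcer1g, the adaptor of NKp46, differed by 4.99 ± 0.28, the kinase gene Syk by 5.54 ± 0.47 and Sh2d1b1 (EAT-2), an adaptor of SLAM-family receptors, by 5.13 ± 0.52. Over the T gate Syk had 4 UMIs and Sh2d1b1 3. Both entered the test through the NK cells and could only come out higher, so their fitted changes are a description only. Of the 17 adaptor and kinase genes tested, 6 were higher, counting both of these, and 1 lower. The lower gene was Lat, the scaffold of T cell receptor signalling, at 0, 27.6, 0 and 32.1 CPM against 234 to 361 CPM (-3.34 ± 0.31). Zap70, Lck, Fyn and Hcst (DAP10), used by both lineages, did not pass.

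Among 18 transcription factors tested, 9 were higher and 2 lower. Eomes differed by 5.55 ± 0.33 SE and its relative Tbx21 (T-bet) by 2.52 ± 0.32 (edgeR adjusted p = 1.49e-07 and 0.000112). With 16 UMIs over the T gate, Eomes entered the test through the NK cells, so its fitted change and p-value are a description only. Irf8, a factor of myeloid and NK cells, was at 1956, 656, 1212 and 730 CPM against 12.2 to 126 CPM (4.18 ± 0.33). Zeb2, needed for late NK maturation, differed by 2.46 ± 0.32, and Stat4, which carries the interleukin-12 signal, by 1.58 ± 0.21. Bhlhe40 differed by 1.38, Id2 by 0.80, Runx3 by 0.74 and Runx1 by 0.73. Tcf7 and Gata3 did not pass, and Ikzf2 (-2.77 ± 0.23) and Prdm1 (-1.15 ± 0.28) were lower.

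Chemokine transcripts were abundant. Of 9 cytokine and chemokine genes tested, 5 were higher and 1 lower. Ccl5, a chemokine for T cells and monocytes, was at 7226, 4675, 12692 and 3916 CPM, and the T gate held 572 to 4235 CPM (1.78 ± 0.33 SE, edgeR adjusted p = 0.00223). Xcl1, which attracts cross-presenting dendritic cells, was at 878, 695, 143 and 912 CPM against 12.4 to 98.0 CPM (5.03 ± 0.54). Ccl4 and Ccl3, inflammatory chemokines, differed by 4.84 ± 0.25 and 4.47 ± 0.33. Ifng, the signature NK cytokine, was at 279, 259, 143 and 264 CPM in NK cells and 19.4 to 101 CPM in the T gate (2.23 ± 0.37). At 5 dpw it had a UMI in 38 of 69 Angptl4+/+ cells (55.1%; 21.7% thinned) and 34 of 60 Angptl4-/- cells (56.7%; 8.33% thinned), against 0 and 0.122% of Csf1r gate cells. Ltb was lower (-1.50 ± 0.26). The cytokine genes Tnf and Csf2 had 2 and 1 UMIs over all NK cells.

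Receptors for the cytokines that drive NK cells were present. Il2rb, the shared receptor chain for interleukin-2 and interleukin-15, was at 1796, 1011, 1212 and 930 CPM and differed from T cells by 1.69 ± 0.22 SE (edgeR adjusted p = 0.000145). Il18rap (2.15 ± 0.20), Il12rb2 (1.79 ± 0.36), Il10ra (1.22 ± 0.29) and Ifngr1 (0.75 ± 0.20) were higher as well. Il2ra (-4.56 ± 0.31), Il7r (-3.85 ± 0.40), Il1rl1 (-3.98 ± 0.56) and Il21r (-1.55 ± 0.35) were lower. Il2ra and Il1rl1 had 15 and 3 UMIs over all NK cells, against 735 and 113 over the T gate. Both entered the test through the T gate, so their fitted changes are a description only. In all, 5 of 14 cytokine receptor genes were higher and 4 lower, counting Il2ra and Il1rl1.

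Migration genes differed in both directions. Of 13 genes of circulation and maturation, 5 were higher and 2 lower. Itgam (CD11b) was at 39.9, 79.0, 143 and 60.5 CPM against at most 25.2 CPM (3.96 ± 0.46 SE, edgeR adjusted p = 4.52e-05), and Itga2 (CD49b), a marker of conventional NK cells, differed by 2.57 ± 0.37. With 11 UMIs over the T gate, Itgam entered the test through the NK cells, so its fitted change and p-value are a description only. Itga4 (1.62 ± 0.26) and Zeb2 were higher, and S1pr1 (-2.67 ± 0.30) and Itgb7 (-1.25 ± 0.25) lower. Of 7 genes of tissue residency, Xcl1 and Rgs2 were higher and Cxcr6 (-4.24 ± 0.31), Itgae (CD103, -4.27 ± 0.42) and Cd69 (-0.95 ± 0.25) lower. Cxcr6 and Itgae had 21 and 6 UMIs over all NK cells, against 758 and 253 over the T gate. Both entered the test through the T gate, so their fitted changes are a description only. Itga1 (CD49a), a mark of tissue-resident group 1 cells, was seen in 11 of 69 Angptl4+/+ NK cells at 5 dpw (15.9%; 4.35% thinned), 7 of 60 Angptl4-/- NK cells (11.7%; 1.67% thinned) and none at 1 dpw. The Csf3r gate held 0.332 and 0.252% at 5 dpw, and the Csf1r gate, whose cells also carry the gene, 11.5 and 15.4%. Ccr2, the monocyte-recruiting receptor, was at 279, 653, 404 and 549 CPM without passing (0.62 ± 0.27, edgeR adjusted p = 0.189).

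The T gate was drawn on Cd3e and Cd3g and the NK rule on their absence, and of the 10 markers tested 4 had no UMI in NK cells and entered only through the T gate, so the 8 that were lower are no result. Cd3d was at 601 to 835 CPM in T cells, Cd5 and Cd6 were absent from all NK cells and at least 65.3-fold and 54.3-fold lower by a limit of 3 UMIs, and Trac was at 0, 20.2, 0 and 17.8 CPM against 380 to 505 CPM. Trbc1, a constant segment of the T cell receptor β chain, did not pass the test and its groups overlapped: it was at 759, 594, 808 and 582 CPM in NK cells and 612, 704, 429 and 640 CPM in T cells (0.01 ± 0.20 SE, edgeR adjusted p = 0.995). Thy1 was at 319, 250, 23.8 and 287 CPM in NK cells (-0.85 ± 0.32, edgeR adjusted p = 0.125). Of 9 glycolysis and hypoxia genes tested, Pkm (-1.26 ± 0.21), Hif1a (-1.23 ± 0.22), Ldha (-0.91 ± 0.21) and Gapdh (-0.84 ± 0.20) were lower and none higher. Of 12 interferon-induced genes 2 were lower, Ly6a (-3.39 ± 0.28) and Isg20 (-1.17 ± 0.34), and of 15 immediate early genes Btg2 was higher and Zfp36 lower.

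The 10 genes furthest above and below T cells, by their fitted change among those past the threshold in the same direction in every library, named Klra4, Cma1, Klri2, Adamts14, Klre1, Klrb1b, Klrb1a, Tyrobp, Prf1 and Eomes above. Klra4, Cma1, Klri2 and Adamts14 had 2, 0, 1 and 1 UMIs over the T gate, so the order is that of the fit and is a description only. Cma1, a chymase best known from mast cells, was at 120, 73.5, 309 and 49.9 CPM in NK cells with no UMI in any T gate. It was found in 14 of 69 and 16 of 60 NK cells at 5 dpw, where Cpa3 had 2 and 1 UMIs in all. Cma1 entered the test only through the NK cells and could only come out higher. By a limit of 3 UMIs it was at least 59.99-fold higher, so its place in this order comes from the fit. Below were Cd3d, Cd5, Cd6, Cd8b1, Ccr7, Foxp3, Tcrg-C1, Cd163l1, Themis and Slamf1. Except for Cd3d none of them had a UMI in NK cells, so they entered the test only through the T gate, and by the same limit they were at least 26.1-fold to 65.3-fold lower. Foxp3, the factor of regulatory T cells, was at 74.4 to 220 CPM in the T gate, Tcrg-C1, a constant segment of the T cell receptor γ chain, at 47.6 to 171 CPM and Cd8b1, of cytotoxic T cells, at 103 to 193 CPM, so the T gate held several kinds of T cell.

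**Figure D3:**
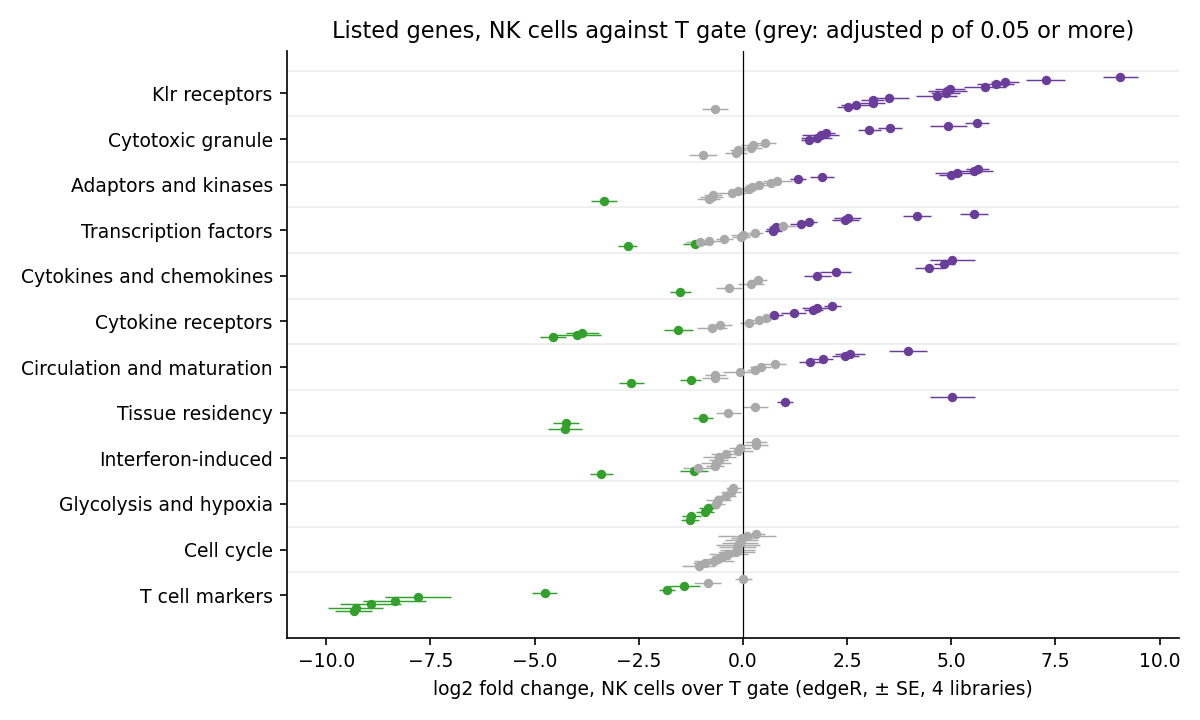
Log2 fold change between NK cells and the T gate (x axis, edgeR estimate ± SE over 4 libraries) for each tested gene of 12 lists (y axis); violet points are higher, green points lower and grey points did not pass. Klr receptors lie to the right except Klrg1, T cell markers lie to the left except Trbc1, and cell cycle genes centre on 0. Fitted values of genes with no UMI in NK cells are not bounds.

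Proliferation was present at 5 dpw and sat in few cells. Cell cycle genes did not separate NK cells from T cells (0 of 15 higher, 0 lower). Over NK cells the 18 listed cycle genes summed to 838 CPM at 1 dpw and 2859 CPM at 5 dpw in Angptl4+/+ wounds, and to 428 and 4871 CPM in Angptl4-/- wounds. At 5 dpw 9 of 69 Angptl4+/+ NK cells (13.0%, 6.14 to 23.3%) and 10 of 60 Angptl4-/- NK cells (16.7%, 8.29 to 28.5%) had a UMI of at least 9 cycle genes, and they held 81.1 and 89.5% of the cycle UMIs. None of the 5 and 9 cells at 1 dpw did, which allows up to 52.2 and 33.6%. The limit of 9 genes was set after the values were seen, and 4 Angptl4+/+ and 0 Angptl4-/- cells had 7 to 10. These cells were also the deepest, with medians of 16856 and 20377.5 UMIs against 6381.5 and 6760.5 in the rest, and a deeper cell can show more genes. With every cell thinned to 1000 UMIs, Mki67 or Top2a was seen in 7.25% of Angptl4+/+ and 15.0% of Angptl4-/- NK cells at 5 dpw (unthinned 26.1 and 31.7%), against 20.2 and 12.4% of T gate cells and 0.271 and 0.457% of Csf3r gate cells.

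**Figure D4:**
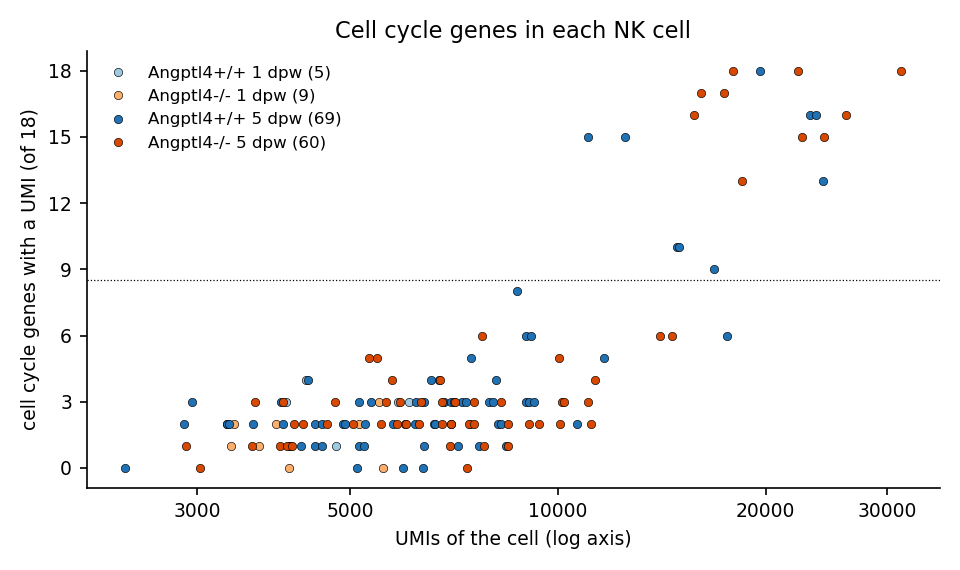
Number of 18 cell cycle genes with a UMI (y axis) against the UMIs of the cell (x axis, log axis) for each of the 143 NK cells, coloured by library; the dotted line lies between 8 and 9 genes. The 19 cells above the line all come from 5 dpw and have more UMIs than most other NK cells.

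Summed over the cells with at least 9 cycle genes, NK genes were detected, but not in every cell: Gzma, Gzmb and Klra4 were all at 0 in 1 of 9 (Angptl4+/+) and 3 of 10 (Angptl4-/-) of them, and in 6 of 60 and 2 of 50 of the rest. In Angptl4+/+ wounds at 5 dpw the 9 cells had 5249 CPM of Gzma and the other 60 had 6668 CPM, and in Angptl4-/- wounds the 10 cells had 3764 and the other 50 had 6247 CPM. Prf1 was at 894 against 783 CPM and at 594 against 925 CPM, and Klra4 at 547 against 614 CPM and 532 against 630 CPM. Gzmc, a granzyme of activated killers, was lower in them, at 6.21 against 167 CPM in Angptl4+/+ and 51.8 against 847 CPM in Angptl4-/- wounds. In each genotype a few cells carried it, as given below.

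Between days the NK cells at 1 dpw are so few (5 and 9) that a ratio is a description of those cells, and with 20 UMIs over both libraries 1 UMI at 1 dpw decides many of them. Among genes with at least 20 UMIs over both libraries, 244 of 3919 (6.23%) were at least 2-fold higher and 719 (18.3%) at least 2-fold lower at 5 dpw in Angptl4+/+ NK cells, and 392 of 4128 (9.5%) higher and 583 (14.1%) lower in Angptl4-/- NK cells. That split rests on the scale: leaving mitochondrial, ribosomal, S100a8 and S100a9 UMIs out of the totals moved all ratios up by 0.17 and moved the higher genes' part of those changed to 38.5% (Angptl4+/+, 25.3% before) and 57.4% (Angptl4-/-, 40.2% before). Allowing 1 UMI of Hdc and of Csf1r, chosen after seeing the data, gave 452 higher and 719 lower of 4366 genes in Angptl4+/+ NK cells (38.6% of the changed genes higher), and asking for 50 UMIs gave 201 and 224 of 1682 (47.3%). Directions below are on the first scale and rule.

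Ccl4, Gzma, Gzmb and Prf1 took a larger share of UMIs in the early cells. Ccl4 was at 3713 CPM at 1 dpw and 978 CPM at 5 dpw in Angptl4+/+ NK cells (log2 ratio -1.92, -2.24 to -1.59) and at 3232 and 1256 CPM in Angptl4-/- NK cells (-1.36, -1.63 to -1.09). The other wound cells also held less Ccl4 at 5 dpw (-1.75 and -1.08). Gzma had a log2 ratio of -0.51 (-0.71 to -0.31) and -1.34 (-1.47 to -1.21), Gzmb of -0.92 (-1.43 to -0.36) and -1.73 (-2.06 to -1.39), and Prf1 of -0.93 (-1.41 to -0.42) and -0.91 (-1.29 to -0.50). These intervals all lie below 0, but single early cells weigh on them: 1 of 9 Angptl4-/- cells gave 65.6% of the Gzmb UMIs and 1 gave 58.8% of the Ccl4 UMIs. Without the cell of each library with the most UMIs of the gene, a setting chosen after seeing the data, the ratios were -1.52 and -0.53 for Ccl4, -0.23 and -1.30 for Gzma, -0.54 and -0.79 for Gzmb, and -0.64 and -0.79 for Prf1. Of 14 granule genes 1 was at least 2-fold lower and none higher in Angptl4+/+ NK cells, and 3 were lower and 1 higher (Gzmc, 0 UMIs at 1 dpw and 307 at 5 dpw) in Angptl4-/- NK cells. The lower counts are not a result about the list beside the 18.3 and 14.1% of all genes. Its ratios had medians of -0.64 and -0.67 beside -0.19 over all genes in each genotype. Zeb2 was at 639 CPM at 1 dpw and 188 CPM at 5 dpw in Angptl4+/+, and at 570 and 139 CPM in Angptl4-/- NK cells. Its log2 ratios of -1.77 and -2.04 became -0.46 and -1.91 without the cells with the most Zeb2 UMIs.

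Of the 18 cell cycle genes 5 had a UMI at 1 dpw in each genotype. The others entered the comparison only through 5 dpw and could only come out higher, so their count is no result. Hmgb2, a chromatin protein abundant in dividing cells, was at 319 and 893 CPM in Angptl4+/+ and at 214 and 1307 CPM in Angptl4-/- NK cells, giving log2 ratios of 1.48 (0.49 to 2.70) and 2.61 (1.68 to 3.75). For 7 listed genes in Angptl4+/+ and 4 in Angptl4-/- NK cells with no UMI at 1 dpw, 3 UMIs there would reach the 5 dpw level, so no ratio was formed. Stmn1, of the same list, and Hist1h1b, a histone gene of dividing cells, were among the 8 genes with the largest rise in both genotypes: Hist1h1b had no UMI at 1 dpw in either and was at least 3.1-fold and 8.72-fold higher at 5 dpw by a limit of 3 UMIs. The others were Gpi1, AY036118, mt-Atp8, Cenpa, Phb2 and Uqcc2. Without the cell with the most Gpi1 UMIs in each library the log2 ratio of Gpi1 went from 2.54 and 2.18 to 0.64 and 1.26. Cenpa had 1 UMI at 1 dpw in Angptl4+/+ NK cells, and its direction turned there when 1 UMI of Hdc and of Csf1r was allowed. AY036118, a transcript of the ribosomal RNA locus, was at 359 and 1995 CPM in Angptl4+/+ NK cells and 452 and 2039 CPM in Angptl4-/- NK cells, and it was also higher at 5 dpw in all other cells (log2 ratio 2.04 and 1.79). The 8 with the largest fall were Snx18, Lrp6, Tfg, Apc, Zeb2, Rap2b, Kdm6b and Kif1b, each with 3 to 24 UMIs at 1 dpw.

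Immediate early genes, which rise within minutes of stimulation, differed by day in Angptl4+/+ NK cells, where 9 of 15 were at least 2-fold lower at 5 dpw and none higher (median -1.36), beside 18.3% of all genes and a median of -0.19. In Angptl4-/- NK cells 1 was lower and 2 higher (median 0.16). Junb was at 2116 and 824 CPM in Angptl4+/+ NK cells and 879 and 985 CPM in Angptl4-/- NK cells. The early Angptl4+/+ cells were the high ones, and 1 of those 5 cells gave 43.4% of their Junb UMIs. Junb was lower at 5 dpw in the T gate of Angptl4+/+ wounds as well (log2 ratio -1.40, -1.59 to -1.21), and the change was -0.03 in all other cells.

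Between genotypes at 5 dpw, where both libraries held at least 60 NK cells, the listed groups differed in how many genes reached 2-fold. Of 5863 genes with at least 20 UMIs over both libraries 217 (3.7%) were at least 2-fold higher and 155 (2.64%) at least 2-fold lower in Angptl4-/- cells, with a median log2 ratio of 0.04. None of 18 adaptor and kinase genes, none of 18 transcription factors and none of 9 cytokine and chemokine genes reached 2-fold in either direction, and 1 of 15 granule genes did, which is near the shares over all genes. Of 17 Klr receptor genes 3 were higher and 4 lower. Prf1 was at 816 CPM in Angptl4+/+ and 800 CPM in Angptl4-/- NK cells (log2 ratio -0.03, -0.22 to 0.16), Eomes at 305 and 294 CPM (-0.05, -0.37 to 0.27), Ifng at 259 and 264 CPM (0.02, -0.32 to 0.37), and Klrk1 at 932 and 914 CPM (-0.03, -0.21 to 0.15). Gzma was at 6248 and 5309 CPM (-0.24, -0.31 to -0.16), lower in Angptl4-/- cells beyond counting error. Among cells with fewer than 9 cycle genes it was at 6668 CPM (6412 to 6932) and 6247 CPM (5988 to 6515), and these intervals overlap.

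The NK gene complex held several genes that differed. Taken from Klrb1a to Klra2 (chr6:128609227-131247362, GRCm38, chosen after the values were seen), it holds 50 genes of the annotation, 24 of them Klr genes. At 5 dpw 8 of its 21 genes with enough UMIs were at least 2-fold different between genotypes, 3 higher and 5 lower in Angptl4-/- NK cells (38.1%), against 6.23% of 5842 genes elsewhere. Klra1 (Ly49A) was at 62.5 CPM in Angptl4+/+ and 198 CPM in Angptl4-/- NK cells, a log2 ratio of 1.66 (1.10 to 2.26). It was seen in 6 of 69 Angptl4+/+ cells (8.70%; 4.35% thinned) and 39 of 60 Angptl4-/- cells (65.0%; 13.3% thinned), against 0.0665 and 0.151% of Csf3r gate cells at median depths of 3284.5 and 3481.5 UMIs. Klra7 (Ly49G) was at 322 and 707 CPM (1.14, 0.88 to 1.40). Klra8 (Ly49H) and Klra9 (Ly49I) ran the other way, at 248 and 97.9 CPM (-1.34, -1.82 to -0.88) and at 290 and 128 CPM (-1.18, -1.60 to -0.77). Klra4, in the same cluster, was at 594 and 593 CPM (-0.00, -0.23 to 0.22), and Klre1 and Klrd1 had log2 ratios of -0.05 (-0.26 to 0.17) and -0.12 (-0.31 to 0.07). Klra4 was seen in 29 of 69 Angptl4+/+ cells (42.0%; 27.5% thinned) and 43 of 60 Angptl4-/- cells (71.7%; 35.0% thinned), against 0.199 and 0.101% of Csf3r gate cells. Of its 323 UMIs in Angptl4+/+ cells, 47 came from 1 cell.

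**Figure D5:**
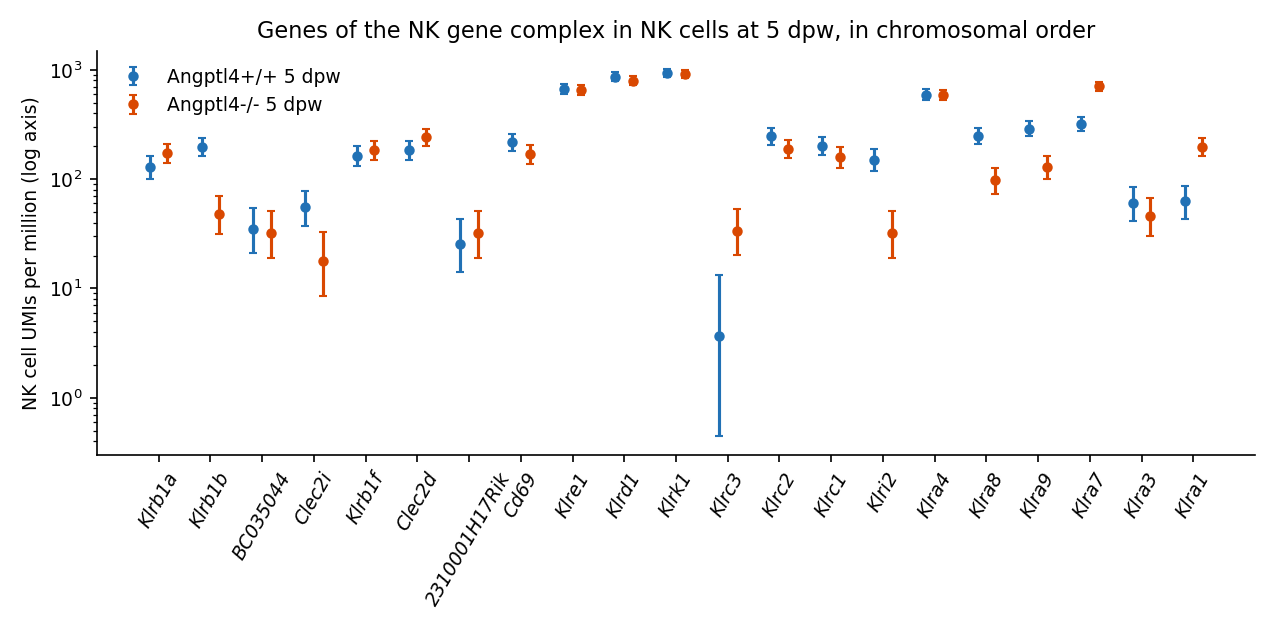
Summed level in NK cells at 5 dpw (y axis, CPM, log axis, exact 95% interval) of the 21 genes of the NK gene complex with at least 20 UMIs, in chromosomal order (x axis), for Angptl4+/+ (blue) and Angptl4-/- (orange). Klrb1b, Clec2i, Klri2, Klra8 and Klra9 are at least 2-fold lower and Klrc3, Klra7 and Klra1 at least 2-fold higher in Angptl4-/- cells, with genes within 2-fold between them.

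Outside the Ly49 genes, Klri2, a partner of Klre1, was at 151 CPM (82 UMIs in 36 of 69 cells) in Angptl4+/+ and 32.1 CPM (18 UMIs in 9 of 60 cells) in Angptl4-/- NK cells (-2.23, -3.06 to -1.48). Klrb1b, an inhibitory NKR-P1 receptor gene, was at 199 and 48.1 CPM (-2.05, -2.71 to -1.43), and Clec2i, which encodes a ligand of that family, at 55.1 and 17.8 CPM (-1.63, -2.83 to -0.56). Most Klrb1b UMIs came from cells without a UMI of the 6 Ly49 genes counted below. Such cells were 21 of 69 in Angptl4+/+ and 6 of 60 in Angptl4-/- wounds, and how far the ratio rests on them was not tested. Klrc3 had 2 UMIs in Angptl4+/+ and 19 in Angptl4-/- NK cells (3.20, 1.15 to 6.35). Among cells chosen by Ncr1 alone the ratios of Klra1 (1.57), Klra7 (1.07), Klra8 (-1.38), Klra9 (-1.20), Klri2 (-2.45) and Klrb1b (-2.17) were close to those given. Klrb1c, which does not choose these cells, had a log2 ratio of -1.58 (-1.91 to -1.27). Several genes of the complex are near copies of each other, and how reads shared between copies were counted bears on them. Of the 31-base stretches near the 3′ end, another gene shares 74.4% in Klra9, 47.8% in Klra8, 36.5% in Klra7, 15.6% in Klra1 and 17.2% in Klra4. The shares were 46.6% in Klrc3, 28.0% in Klrb1b and 10.8% in Klri2. Genotype and mouse source cannot be told apart here. The strain in which the Angptl4-/- allele was made, and its sequence in this complex, are not given in the sources used here, and the counts rest on the mm10 reference.

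NK cells differed in how many Ly49 genes were detected. Of the 6 Ly49 genes counted (Klra1, Klra3, Klra4, Klra7, Klra8, Klra9), 21 of 69 Angptl4+/+ NK cells at 5 dpw (30.4%) and 6 of 60 Angptl4-/- NK cells (10%) had a UMI of none. The most frequent count was 3 genes in both libraries, in 22 and 14 cells, and 4 or more genes were seen in 7, 1 and 0 Angptl4+/+ cells for 4, 5 and 6 genes against 8, 11 and 3 Angptl4-/- cells. Klra4 and Klra7 were seen together in 20 of 69 and 35 of 60 cells. The cells were not thinned for this count, and a shallow cell shows fewer genes. In the T gate at 5 dpw Klra4 was seen in 0 of 114 and 2 of 105 cells, at median depths of 7225 and 6625 UMIs.

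At the same day Gzmc was at 119 CPM (65 UMIs) in Angptl4+/+ and 547 CPM (307 UMIs) in Angptl4-/- NK cells (2.19, 1.80 to 2.60). It came from 6 of 69 and 8 of 60 cells, and the highest cell alone gave 76.9 and 35.5% of the UMIs, so the shares of positive cells (8.70%, 3.26 to 17.97%, and 13.3%, 5.94 to 24.6%) overlap. Without the cell of each library with the most Gzmc UMIs the log2 ratio was 3.67. Few cells still carry that ratio, since the highest Angptl4-/- cells held 109, 108 and 68 of the 307 UMIs. Of the cycle genes 7 of 18 were at least 2-fold higher (median 0.97), beside 3.7% of all genes, among them Mki67 at 176 and 475 CPM (1.43, 1.09 to 1.78). The 9 and 10 cells described above held 81.1 and 89.5% of the cycle UMIs, with overlapping shares of cells, and without them 152 of 4603 genes were at least 2-fold higher and 156 lower. In the T gate the log2 ratio of Mki67 was -1.42, -1.65 to -1.20. Prc1 and Hist1h2ap, 2 further genes of dividing cells, were at 42.3 and 162 CPM and at 197 and 1069 CPM. Hspa1a and Hspa1b, heat-shock genes, had 22 and 45 UMIs in Angptl4-/- and none in Angptl4+/+ NK cells, all from 2 of 60 cells, with 77.3 and 64.4% of them in 1 cell. Spp1 (osteopontin) was at 206 and 698 CPM, from 18 of 69 and 14 of 60 cells, and the part of it that was RNA of other cells was not tested. Of 15 immediate early genes, Nfkbia (149 and 374 CPM; 1.33, 0.95 to 1.72) and Nr4a1 (55.1 and 118 CPM; 1.09, 0.45 to 1.77) were at least 2-fold higher and none was lower.

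On the lower side, Gm2682 had 62 UMIs in 40 of 69 Angptl4+/+ NK cells and 1 UMI in Angptl4-/- NK cells at 5 dpw (-6.00, -11.33 to -3.47), and all other cells of the wound showed a log2 ratio of -4.98. Gm10036 had 0 and 23 UMIs, with a log2 ratio of 6.15 in all other cells. Gm10036 shares 76.8% of its 31-base stretches near the 3′ end with Rpl11. Serpinb9b, of the serpin family, was at 147 and 32.1 CPM from 16 of 69 and 6 of 60 cells (-2.20, -3.02 to -1.45), and without the 19 cells with at least 9 cycle genes its log2 ratio was 0.055. The others among the 8 lowest were Socs2, Frmd4b, AA467197 and Stambp, with 19 to 29 UMIs in Angptl4+/+ and 2 to 6 in Angptl4-/- NK cells, and Klri2 and Klrb1b as above.

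At 1 dpw, the comparison of 9 Angptl4-/- with 5 Angptl4+/+ cells had 508 genes with enough UMIs, 27 (5.31%) at least 2-fold higher and 36 (7.09%) at least 2-fold lower. With 1 UMI of Hdc and of Csf1r allowed, 52 were higher and 55 lower of 804. Klre1 was at 559 CPM (14 UMIs) in Angptl4+/+ and 1165 CPM (49 UMIs) in Angptl4-/- cells (1.06, 0.18 to 2.03), and Klra7 at 279 and 689 CPM (1.30, 0.08 to 2.74). Klrb1b was lower in Angptl4-/- cells at this day as well, at 559 and 214 CPM (-1.39, -2.77 to -0.08). Klra8, Klri2 and Klra1 did not repeat their 5 dpw direction and had too few UMIs to enter the counts above. Klra8 had 0 UMIs in Angptl4+/+ and 14 in Angptl4-/- cells, Klri2 2 and 11 (1.71, -0.48 to 4.93), and Klra1 5 and 7 (-0.26, -2.13 to 1.74). Of the 7 genes of the NK gene complex with enough UMIs 4 reached 2-fold (57.1%), beside 11.8% of 501 genes elsewhere. Xcl1 was at 878 CPM (22 UMIs) and 143 CPM (6 UMIs), a log2 ratio of -2.62 (-4.21 to -1.28). Of the 22 UMIs 13 came from 1 of 5 cells, and without the cell of each library with the most Xcl1 UMIs the ratio was -2.07. Of 11 immediate early genes 5 were at least 2-fold lower in Angptl4-/- cells and none higher.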

How the data were processed

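Each of the 4 libraries was deposited by the authors as a matrix of raw UMI counts per gene and cell barcode, made with Cell Ranger 3.1.0 on mm10 from 10x 3′ libraries, and no normalization had been applied. The submitters' notes also name Seurat 3.0. Total UMI counts were 32962595 and 29746688 (Angptl4+/+, 1 and 5 dpw) and 27472052 and 26981596 (Angptl4-/-), over 20069 barcodes, of which 19827 passed the filters. Libraries were grouped by their labels. NK cells, gene lists, motifs and comparisons were chosen with earlier results of these data known. A Scrublet threshold set automatically called 6 cells, so cells at or above the score that 5% of each library reach (1140 cells with ties, 5.48 to 6.14% of a library) were scored as doublets, and were left out only in an alternative. Libraries shared 50 barcodes over 6 pairs, 0 with identical counts. Counts were summed per library and gate with Python 3.11.15 and scipy 1.17.1. Levels have exact Poisson, shares Clopper-Pearson, share differences Newcombe and ratios exact conditional binomial intervals. NK cells and the T gate were compared with edgeR 4.0.16 in R 4.3.3 (TMM, filterByExpr, quasi-likelihood, Benjamini-Hochberg, threshold 0.05). The library was a block because both gates of a library come from the same sorted cells. On simulated data with 4-fold changes, 116 of 144 changed genes (80.6%) were recovered among 4493 genes with 7 false calls. Named genes were list members, the 10 genes per direction with the largest change between NK cells and T gate, and the 8 per direction with the largest day or genotype ratio. Of 295 listed genes 290 were found. Positions come from GENCODE on GRCm38 and promoters from RefSeq. Alternatives changed the gates, filters, scaling, depth, test and libraries. Some listed genes are not reported here.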

Additional observations from a re-analysis of the deposited data

Results flagged for a closer look

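Klra8 (Ly49H) moved in opposite directions between days in the 2 genotypes. In Angptl4+/+ NK cells no UMI was found in the 5 cells of 1 dpw and 135 were found in the 69 cells of 5 dpw, a log2 ratio of at least 1.05 against 3 UMIs. In Angptl4-/- NK cells 9 early cells held 14 UMIs and 60 later cells 55, a log2 ratio of -1.76 (-2.63 to -0.80). Without the cell of each library with the most Klra8 UMIs, the Angptl4+/+ limit fell to 0.52 and the Angptl4-/- ratio was -1.85. Fosb, an immediate early gene, went the other way round, with a log2 ratio of -0.82 in Angptl4+/+ and 1.08 in Angptl4-/- NK cells, where all 7 of its early UMIs came from 1 cell. Without the cell of each library with the most Fosb UMIs the ratios were -0.25 and, against 3 UMIs, at least 1.99. Neither difference between genotypes was tested, since each condition had 1 library and the 1 dpw libraries held 5 and 9 NK cells.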

How the results depend on the processing

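All 20 values of the NK share under the alternatives for the rule, the cell filter and doublets stayed within the counting interval. With Hdc and Csf1r allowed at 1 UMI the libraries held 8, 79, 11 and 63 NK cells. NK cells against the T gate gave 252 higher and 260 lower genes. DESeq2 gave 173 and 146, no filter on low counts 389 and 557, and the 5 dpw libraries alone, chosen after seeing the data, 403 and 343. Leaving out a library in turn gave 96 to 362 higher and 70 to 314 lower. The lowest counts came without a 5 dpw library (99 and 90 without Angptl4+/+, 96 and 70 without Angptl4-/-), when 1654 and 1637 genes were tested. Without the replicate block (the library) 183 were higher and 181 lower. Of 981 values of named genes in these alternatives, 938 kept their side of the threshold and 43 lost it, all in the same direction. Days and genotypes were compared between single libraries without a test, and a joint fit of day and genotype over the 4 libraries was not run. With at least 50 UMIs, 201 genes were 2-fold higher and 224 lower at 5 dpw in Angptl4+/+ NK cells, 203 higher and 156 lower in Angptl4-/-, 3 higher and 4 lower by genotype at 1 dpw, and 54 and 22 at 5 dpw. Thinned to 1000 UMIs per cell, the counts were 52 and 71, 64 and 35, 8 and 3, and 41 and 29. Fewer genes had enough UMIs in both. With Hdc and Csf1r allowed at 1 UMI, 452 were higher at 5 dpw in Angptl4+/+ NK cells, and 52 higher and 55 lower by genotype at 1 dpw, and without the cycling cells 360 were lower at 5 dpw in Angptl4-/- NK cells. Of 954 values of named genes, 865 stayed within their spread, 87 moved and 2 changed sign: the log2 ratio of 5 dpw against 1 dpw, Angptl4+/+, Cenpa, with Hdc and Csf1r allowed at 1 UMI (-0.398) and that of Angptl4-/- against Angptl4+/+, 5 dpw, Serpinb9b, without the cycling cells (0.055), both settings chosen after seeing the data. The cause was not tested. At 1 dpw 1 UMI stood for 39.9 and 23.8 CPM, so weakly expressed genes could not be seen there.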
